A study of Mus musculus with 4 samples.

Results

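The genes described here are 8 mouse CXC chemokine genes, taken by symbol from the deposited gene table of 54532 genes: Cxcl1, Cxcl2, Cxcl3, Cxcl5, Cxcl9, Cxcl10, Cxcl14 and Cxcl16. RNA sequencing was run on total RNA of cultured cells labelled MSCs, a term used for mesenchymal stromal cells, which had been obtained by digestion of whole bone marrow from CB6F1 mice, an F1 hybrid strain. Cells of the aGVHD_R group (2 libraries, called R here) were given R, an agent named by this letter alone, at 0.5 µM (given as "um"), and cells of the aGVHD_V group (2 libraries, called vehicle) received DMSO, a solvent. Both groups carry the term aGVHD, a common abbreviation of acute graft-versus-host disease, in their titles, and no group outside that setting was analysed here. What R is cannot be told from the labels, which give no age of the mice, and do not say if each replicate came from its own mouse or dish. The p-values therefore cover the variation among these libraries alone, which may be technical. The deposited values could be turned back into whole reads, 16534440 to 18085183 per library.

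CXC chemokines are small proteins that guide leukocytes along a gradient, and their name describes the spacing of their first cysteines. Members with the tripeptide Glu-Leu-Arg ahead of those cysteines (Cxcl1, Cxcl2, Cxcl3 and Cxcl5 in mice) bind the receptor Cxcr2 and attract neutrophils, and their transcription is driven largely by NF-kB downstream of interleukin 1, TNF or Toll-like receptors. Cxcl9 and Cxcl10 lack that tripeptide, are induced by interferons, and attract activated T cells and NK cells through Cxcr3. Cxcl16 is made as a membrane protein and binds Cxcr6, and Cxcl14 is a constitutively expressed member of many epithelia and stromal cells. Bone marrow stromal cells and macrophages both make chemokines of this family, and in bulk RNA a lower level can come from fewer cells of a type or from less RNA per cell, which cannot be told apart.

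Of the members, 6 lie on chromosome 5 in 2 groups (GRCm38, GENCODE M21). The neutrophil attractants span 147 kb on the forward strand, from Cxcl5 (ENSMUSG00000029371, chr5:90759360-90761624) through Cxcl3 (ENSMUSG00000029379, chr5:90786103-90789600) and Cxcl1 (ENSMUSG00000029380, chr5:90891241-90893115) to Cxcl2 (ENSMUSG00000058427, chr5:90903871-90905938). The interferon-induced pair lies 1415 kb further on, on the reverse strand, with Cxcl9 (ENSMUSG00000029417) at chr5:92321347-92328079 and Cxcl10 (ENSMUSG00000034855) at chr5:92346638-92348889. Cxcl14 (ENSMUSG00000021508) is at chr13:56288643-56296551 and Cxcl16 (ENSMUSG00000018920) at chr11:70453983-70459984, both on the reverse strand. Cxcl10 lies within the span of Art3 on the opposite strand, and 552 bases of Cxcl16 overlap Zmynd15 on the opposite strand. The sources do not say whether counting used strand. Art3 had 1 to 3 reads per library, so it could add little to Cxcl10. Zmynd15 was at 2.16 and 1.64 FPKM in R and at 3.36 and 3.10 FPKM in vehicle, so part of the reads of Cxcl16 is uncertain.

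Promoter windows, 250 bases before to 50 bases after the annotated start, were given by RefSeq (GRCm38.p6) for 6 of the 8 members, not for Cxcl5 and Cxcl16. The stretches of Cxcl1, Cxcl2 and Cxcl3 are shown because they share one stretch of the form that NF-kB binds (kappaB) ahead of a TATA-like element, and those of Cxcl10 and Cxcl9 to set the interferon-induced pair beside them. In the first set the capitals mark GGGAATTTCCC, the longest stretch around a kappaB core that all 3 windows share, and ATAAAA. They lie at chr5:90891168-90891222, chr5:90903796-90903853 and chr5:90786022-90786083 on the forward strand.
Cxcl1: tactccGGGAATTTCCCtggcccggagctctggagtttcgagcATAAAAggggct
Cxcl2: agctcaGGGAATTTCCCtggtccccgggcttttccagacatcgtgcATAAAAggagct
Cxcl3: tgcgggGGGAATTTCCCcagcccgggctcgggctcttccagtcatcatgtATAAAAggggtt

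In the windows of Cxcl10 (chr5:92348840-92349139) and Cxcl9 (chr5:92328030-92328329), both read on the reverse strand, the capitals mark the kappaB core GGANNTTCC, GAAANNGAA, which is part of the interferon-stimulated response element, and the AP-1 site TGANTCA, where present.
Cxcl10: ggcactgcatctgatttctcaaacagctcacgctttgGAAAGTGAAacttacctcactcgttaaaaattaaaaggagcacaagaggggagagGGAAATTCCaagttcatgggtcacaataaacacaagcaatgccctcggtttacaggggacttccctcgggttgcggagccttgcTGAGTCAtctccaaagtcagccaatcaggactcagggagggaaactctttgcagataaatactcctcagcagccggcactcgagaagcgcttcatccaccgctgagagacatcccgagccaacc
Cxcl9: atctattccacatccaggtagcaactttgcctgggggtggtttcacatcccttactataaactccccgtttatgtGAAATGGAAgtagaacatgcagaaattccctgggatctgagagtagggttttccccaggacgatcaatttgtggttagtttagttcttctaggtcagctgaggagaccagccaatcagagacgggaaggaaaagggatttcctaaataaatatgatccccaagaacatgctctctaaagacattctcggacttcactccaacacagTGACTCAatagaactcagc

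The motifs were chosen after these windows had been read. GGGAATTTCCC, searched on both strands, occurred in 14 of 32851 promoter windows (0.0426%), among them those of Cxcl1, Cxcl2 and Cxcl3, where it was taken from. Counted from the RefSeq start, which differs from the GENCODE gene start given above, its first base lay at -71, -97 and -73. The core GGANNTTCC, which lies within it, was found in 4 of the 6 members' windows, the fourth being Cxcl10, and in 4.26% of all windows. Other spellings of a kappaB site are not counted here, so a window without this core may still hold one. GAAANNGAA was found in Cxcl9, Cxcl10 and Cxcl14 and in 8.56% of all windows, with its first base at -175, -213 and -172. TTCNNNGAA, the core of a gamma-activated site, was found in Cxcl14 and in 8.3% of windows, and TGANTCA in Cxcl9 and Cxcl10 and in 7.81%. TATAAA and ATAAAA, which overlap in Cxcl3, were searched on the gene's strand. TATAAA was found in Cxcl3 and Cxcl9 and in 8.32% of windows, and ATAAAA in Cxcl1, Cxcl2 and Cxcl3 and in 11.1%. These are matches of letters and not sites shown to be bound.

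**Figure D1:**
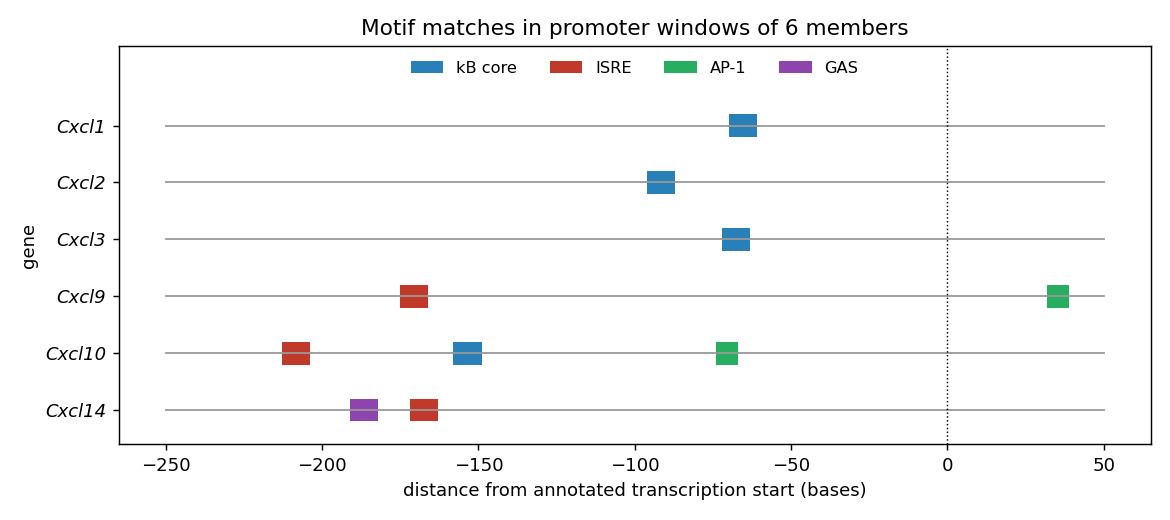
Positions of motif matches in the promoter windows of 6 members, as distance in bases from the annotated transcription start (dotted line); bars are kappaB cores (blue), AP-1 (green), interferon-stimulated response element cores (red) and gamma-activated sites (purple). Blue bars mark Cxcl1, Cxcl2, Cxcl3 and Cxcl10, and red bars mark Cxcl9, Cxcl10 and Cxcl14. Cxcl10 thus has a match to each, with the red bar starting at -213. Of kappaB spellings only GGANNTTCC is drawn.

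Setting R against vehicle asks which of these chemokine mRNAs change in cells that received R. Cxcl5 and Cxcl10 fell in R, to 0.264 and 0.395 of their vehicle means, so 1 gene of each functional class passed the test. Cxcl1, Cxcl2 and Cxcl16 were lower in both R libraries without passing it, and Cxcl14 was higher in both R libraries, also without passing. The 6 members with a mean of at least 1 FPKM (reads per kilobase of exon, scaled to sequencing depth) over the 4 libraries were tested, each with a mean above 1 FPKM in both groups. Cxcl3 and Cxcl9 lay under that level. Of the 6 tested members, 2 were called lower, where the background was 1.37% of all 12176 tested genes (167 genes), and 0 were called higher, where it was 0.345% (42 genes); either way the background was 1.72%. Voom on recovered reads called 3 lower and 1, Cxcl14, higher, and the limma shares are not its background. Over the 11564 genes that voom tested, 74.6% of its calls were lower in R. Of the 8894 limma-tested genes with a promoter window, voom called 232 in either direction, where limma called 111 lower and 18 higher. In limma 5 of the 6 had log2 fold changes below 0 at an unadjusted p under 0.05, against 8.83% of tested genes, and Cxcl14 was the sixth. Both R libraries lay below both vehicle libraries in 7 of the 8 members, among them Cxcl3 and Cxcl9, which were not tested. Of the 6 tested members 5 were so ordered, against 25.2% of tested genes. The reverse order, seen for Cxcl14, held for 22.7%. On the TPM scale 68.1% and after removal of a gene length trend 61.0% of all called genes were lower in R, where the deposited scale gave 79.9%. Without R replicate 2 it was 48.3%, so that more genes were called higher than lower, and leaving out each of the other 3 libraries gave 63.3 to 68.1%.

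**Figure D2:**
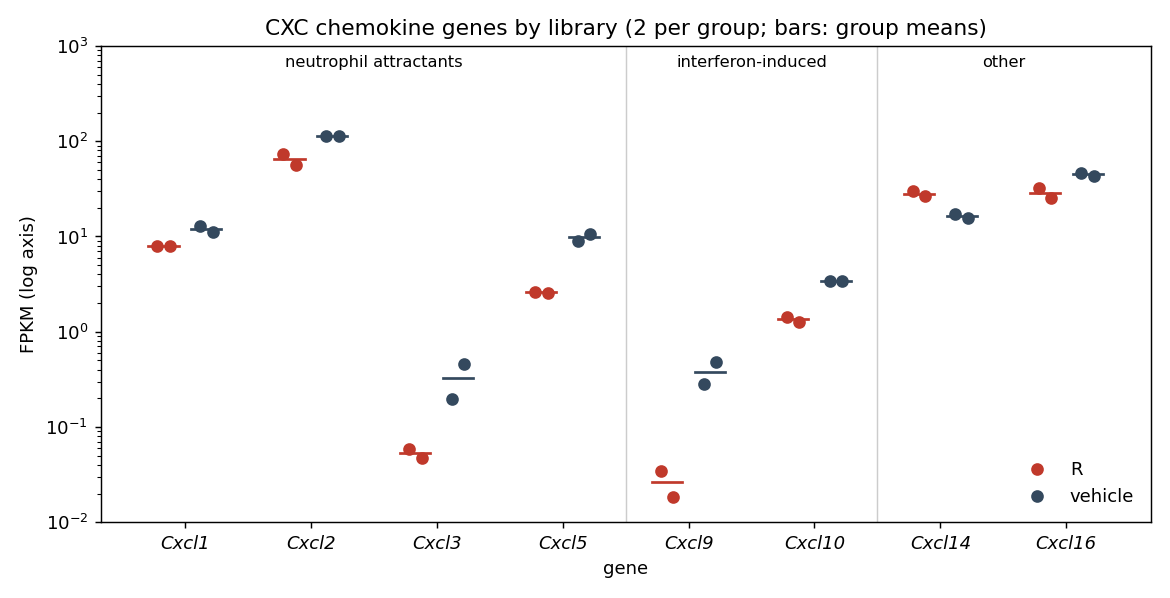
FPKM of the 8 members in each library on a log axis, R to the left of vehicle within each gene; points are libraries and short bars group means (n = 2 each). Both R libraries sit below both vehicle libraries for every member but Cxcl14, where they sit above, from Cxcl9 at 0.0183 and 0.0344 FPKM in R to Cxcl2 at 112 and 114 FPKM in vehicle.

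Among the neutrophil attractants, Cxcl5 changed most on the scale of the test. It was at 2.61 and 2.55 FPKM in R and at 8.95 and 10.7 FPKM in vehicle, values that rest on 94 and 86 reads in R and 294 and 356 reads in vehicle. The lowest vehicle library was 3.42 times the highest R library. Its log2 fold change was -1.59 on the log2(FPKM + 1) scale (SE 0.134; limma, Benjamini-Hochberg adjusted p = 0.00728), rank 44 of the tested genes by p. The call held in 11 of 12 alternatives and was lost when no filter on low values was used (limma, adjusted p = 0.0992).

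Cxcl2, the most abundant member, was at 73.8 and 56.8 FPKM in R and at 114 and 112 FPKM in vehicle. The groups do not overlap, and the gap is wider between the R libraries than between the vehicle libraries, with a mean of 65.3 ± 12.1 FPKM in R, against 113 ± 1.58 FPKM in vehicle (SD, n = 2 each). Its log2 fold change of -0.80 (95% interval -1.21 to -0.39) did not pass after adjustment (limma, Benjamini-Hochberg adjusted p = 0.0934). The log2 fold change was -0.98 and -0.61 without R replicate 1 and 2, and -0.78 and -0.81 without vehicle replicate 1 and 2. With all libraries kept, Cxcl2 passed in both voom fits (adjusted p = 0.0424 and 0.031) and without the length trend (limma, adjusted p = 0.0196). It did not pass on the TPM scale (limma, adjusted p = 0.0658) or with quantile normalization (adjusted p = 0.0516). With replicate numbers as a block, a pairing that the labels do not state, limma's adjusted p was 8.18e-05.

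Cxcl1, which shares its receptor with Cxcl2, was at 7.88 and 7.93 FPKM in R and at 12.9 and 11.2 FPKM in vehicle. The R values lie close together and below both vehicle values. The log2 fold change of -0.55 (95% interval -0.86 to -0.24) did not pass (limma, Benjamini-Hochberg adjusted p = 0.112). Of 12 alternatives 1 passed, the one with a replicate block.

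Cxcl3, another ligand of Cxcr2, was near the limit of detection. It had 4 and 3 reads in R (0.0593 and 0.0474 FPKM) and 12 and 29 reads in vehicle (0.194 and 0.462 FPKM). The pooled ratio of vehicle to R was 6.15 (exact 95% interval for counting error alone, 2.73 to 16.3), and the vehicle libraries differ from each other by more than the R libraries do. A read filter would admit it through the vehicle libraries alone, so no test of it is given.

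Of the interferon-induced pair, Cxcl10 was at 1.43 and 1.28 FPKM in R and at 3.42 FPKM in each vehicle library, from 62 and 52 reads in R and 136 and 138 reads in vehicle. The vehicle libraries are nearly equal, and the lower of them is 2.39 times the higher R library. Its log2 fold change was -0.91 (SE 0.134; limma, Benjamini-Hochberg adjusted p = 0.0395), and on recovered reads in voom, where no constant is added to FPKM, it was -1.33. The call was lost on the TPM scale (limma, Benjamini-Hochberg adjusted p = 0.0763) and without a filter on low values (adjusted p = 0.188). The log2 fold change was -0.96 and -0.86 without R replicate 1 and 2, and -0.91 without vehicle replicate 1 or 2.

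Cxcl9 had 2 reads and 1 read in R (0.0344 and 0.0183 FPKM) and 15 and 26 reads in vehicle (0.282 and 0.480 FPKM). The pooled ratio of vehicle to R was 14.4, with an exact 95% interval for counting error of 4.58 to 72.5. As for Cxcl3, no test is given, since only its vehicle reads would pass a read filter. Cxcl11, the third Cxcr3 ligand of the family, was listed at 0 in all 4 libraries.

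Cxcl14 ran the other way. It was at 30.03 and 26.4 FPKM in R and at 17.3 and 15.5 FPKM in vehicle, so the lower R library was 1.52 times the higher vehicle library. The log2 fold change of 0.75 (95% interval 0.42 to 1.07) did not pass (limma, Benjamini-Hochberg adjusted p = 0.0608). It was 0.66 and 0.83 without R replicate 1 and 2, and 0.82 and 0.67 without vehicle replicate 1 and 2. With all libraries kept, Cxcl14 passed on the TPM scale (limma, adjusted p = 0.0329), with quantile normalization (0.0462) and without the length trend (0.0182). Both voom fits passed as well (adjusted p = 0.0438 and 0.0377). On log2(FPKM + 0.1) and without a filter it did not pass (limma, adjusted p = 0.0658 and 0.196). With replicate numbers as a block, a pairing that the labels do not state, limma's adjusted p was 1.51e-05.

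Cxcl16, the membrane-bound member, was at 32.2 and 25.1 FPKM in R and at 46.6 and 43.3 FPKM in vehicle. All R values are lower, with a gap between the R libraries larger than that between the vehicle libraries. Its log2 fold change of -0.64 (95% interval -1.03 to -0.25) did not pass (limma, Benjamini-Hochberg adjusted p = 0.128). The fold change was -0.82 and -0.47 without R replicate 1 and 2, and -0.59 and -0.69 without vehicle replicate 1 and 2. With all libraries kept, Cxcl16 passed without the length trend (limma, adjusted p = 0.0432) and in no other setting but the replicate block. That block assumes a pairing that the labels do not state (limma, adjusted p = 0.000447). Adam10 and Adam17, the proteases that shed Cxcl16 from the membrane, did not pass, with log2 fold changes of -0.0013 and -0.18.

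**Figure D3:**
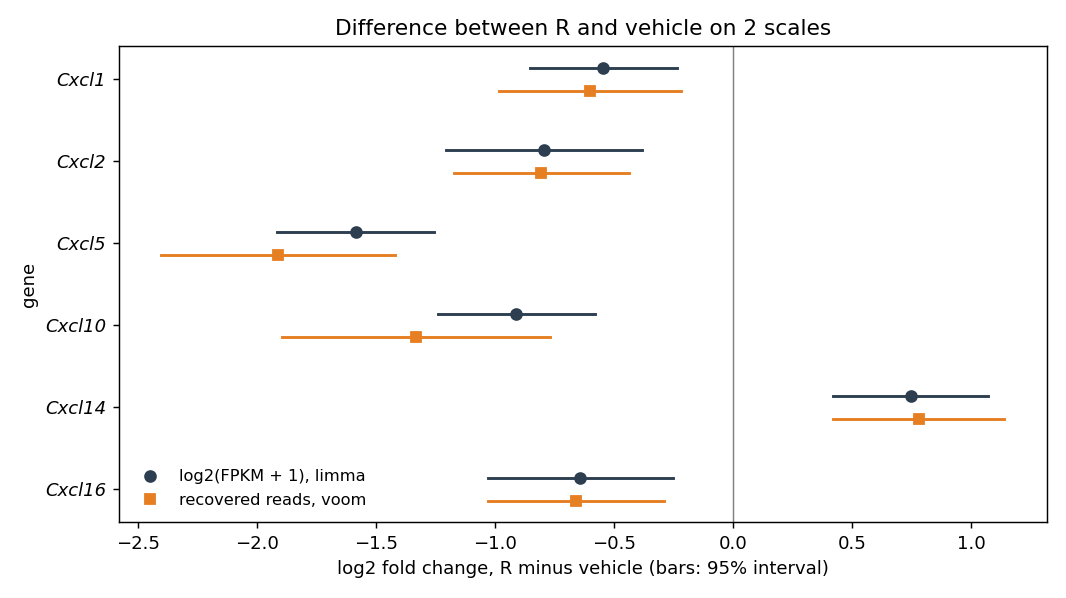
Log2 fold changes of R minus vehicle with 95% intervals, on log2(FPKM + 1) in limma (circles) and on recovered reads in voom (squares), for the 6 tested members. The intervals, which are unadjusted, lie below 0 for every gene shown but Cxcl14, and Cxcl10 is at -0.91 by circle and -1.33 by square.

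Levels can be set against each other only per length, and the length matters here. For 4 members (Cxcl1, Cxcl2, Cxcl3 and Cxcl10) the annotated exons together cover the whole gene, introns included, so their FPKM divides by more than the spliced mRNA. Per kilobase of the longest annotated coding transcript with a consensus coding sequence, Cxcl2 was at 138 and 106 in R and 213 and 209 in vehicle, and Cxcl1 at 15.5 and 15.6 in R and 25.3 and 22.0 in vehicle, all scaled to sequencing depth. On that scale Cxcl10 was at 2.94 and 2.63 in R and 7.05 and 7.03 in vehicle. The order was Cxcl2, Cxcl16, Cxcl14, Cxcl1, Cxcl5, Cxcl10, Cxcl3 and Cxcl9 in both R libraries, and in both vehicle libraries Cxcl1 stood ahead of Cxcl14. Cxcl16 and Cxcl14 lay within their spread in R, at 32.0 ± 5.61 and 28.2 ± 2.54 (SD, n = 2).

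In the summed level of the 8 genes per kilobase of mRNA, Cxcl2 held 61.1 and 58.2% in R and 65.3 and 65.99% in vehicle. Cxcl14 held 13.3 and 14.5% in R and 5.31 and 4.90% in vehicle, and Cxcl16 between 15.3 and 15.97% in every library. With the deposited FPKM the shares of Cxcl14 were 20.3 and 22.0% in R and 8.50 and 7.88% in vehicle. The ratio of Cxcl16 to Cxcl14 per kilobase of mRNA, which does not depend on how libraries are scaled, was 1.199 and 1.06 in R and 3.01 and 3.12 in vehicle.

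**Figure D4:**
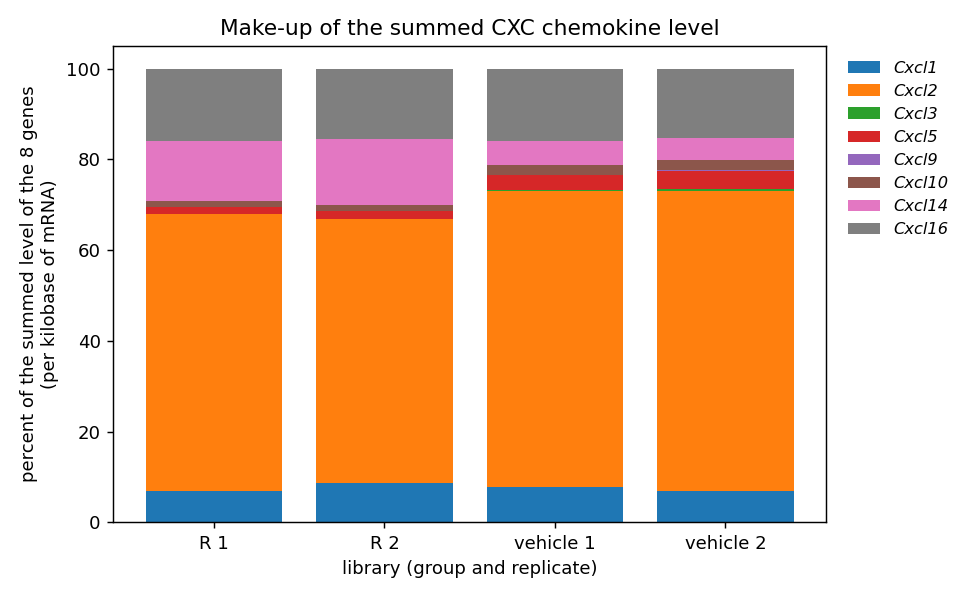
Share of each gene in the summed level of the 8 members per kilobase of mRNA, in percent, for each library, R libraries first. Cxcl2 is the widest band in all 4 libraries, and the band of Cxcl14 is 13.3 and 14.5% in R and 5.31 and 4.90% in vehicle.

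Neutrophil attractants and interferon-induced members were then set against each other. The 4 neutrophil attractants together were at 84.4 and 67.3 FPKM in R and at 136 and 134 FPKM in vehicle, 0.560 of the vehicle mean. The interferon-induced pair was at 1.46 and 1.29 FPKM in R and at 3.71 and 3.90 FPKM in vehicle, 0.363 of the vehicle mean. These sums mostly reflect Cxcl2 and Cxcl10. Averaged over members, the order turned with the scale. The mean log2 fold change of the attractants minus that of the pair was -0.15 on log2(FPKM + 1), but 0.42 on log2(FPKM + 0.1), 0.12 on the TPM scale and 0.98 on recovered reads. The last value rests on Cxcl3 and Cxcl9, with 7 and 3 reads in R. Over the tested members alone, 3 attractants and Cxcl10, the differences were -0.07, 0.19, 0.12 and 0.23 on the same scales, so neither class can be said to have fallen more.

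Ratios between single members within a library, per kilobase of mRNA, did not all move one way. Cxcl2 was 46.9 and 40.3 times Cxcl10 in R and 30.2 and 29.7 times in vehicle, and Cxcl1 was 5.28 and 5.94 times Cxcl10 in R and 3.596 and 3.13 times in vehicle. Cxcl5 was on the other side, at 1.05 and 1.15 times Cxcl10 in R and 1.502 and 1.79 times in vehicle. Within the attractants, Cxcl2 was 44.5 and 35.1 times Cxcl5 in R and 20.1 and 16.6 times in vehicle, while Cxcl2 over Cxcl1 overlapped between groups, at 8.89 and 6.79 in R and 8.41 and 9.51 in vehicle. With 2 libraries against 2, an exact permutation test of a ratio cannot give a two-sided p below 0.333, so none is given.

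Other genes of the 2 clusters did not follow as a block. Pf4, the platelet chemokine between Cxcl5 and Cxcl3, was at 228 and 159 FPKM in R and at 162 and 165 FPKM in vehicle, where the groups overlap (log2 fold change 0.22, limma, Benjamini-Hochberg adjusted p = 0.663; -0.04 without R replicate 1). Ppbp, a precursor of further neutrophil attractants next to it, was at 1.005 and 0.766 FPKM in R and at 1.52 and 2.16 FPKM in vehicle and did not pass (adjusted p = 0.203). With a mean of 0.885 FPKM in R, Ppbp was tested through its vehicle level. Cxcl15 had 5 reads in each R library and 13 and 5 in vehicle. Outside the 2 clusters, Cxcl13 and Cxcl17 were listed at 0.

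Most of the listed receptors for CXC chemokines, whether members of this set or not, were at or near 0. Cxcr2 and Cxcr5 were listed at 0 in all libraries, and Cxcr1, Cxcr6 and Ackr1 had at most 3 reads in any. Cxcr3, the receptor of Cxcl9 and Cxcl10, was at 2.87 and 1.53 FPKM in R and at 3.01 and 3.09 FPKM in vehicle (limma, Benjamini-Hochberg adjusted p = 0.483). Of the 3 tested receptors 0 were called by limma, with 1 at an unadjusted p under 0.05, and voom called that 1. This was Cxcr4, at 39.6 and 39.01 FPKM in R libraries, against 64.8 and 65.8 FPKM in vehicle libraries (limma, Benjamini-Hochberg adjusted p = 0.0536). The log2 fold change was -0.73 and -0.71 without R replicate 1 and 2, and -0.73 and -0.71 without vehicle replicate 1 and 2. With all libraries kept, Cxcr4 also passed in limma without the length trend (adjusted p = 0.0412) and with a replicate block (adjusted p = 0.00013). It did not pass on the TPM scale (limma, adjusted p = 0.0919).

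Lists of genes that control the neutrophil attractants are read against the 1.37% of all tested genes called lower. Of 15 tested inducing cytokines, receptors and adaptors 1 fell (6.67%) and 0 rose, with a median log2 fold change of -0.14. This was Il1b, interleukin 1 beta, at 2.74 and 3.19 FPKM in R and at 7.05 and 6.23 FPKM in vehicle (limma, Benjamini-Hochberg adjusted p = 0.036). It missed the threshold when vehicle replicate 1 was left out (adjusted p = 0.0706), and likewise on TPM values (adjusted p = 0.0919). Tnf was at 23.0 and 16.9 FPKM in R and at 18.6 and 17.1 FPKM in vehicle, where the groups overlap. Of 15 tested NF-kB subunits, inhibitors and cofactors 1 fell (6.67%), Bcl3, a nuclear cofactor, with a log2 fold change of -0.96 (limma, Benjamini-Hochberg adjusted p = 0.0231), and the list's median was -0.08. In that list 2 were lower and 0 higher at an unadjusted p under 0.05, Bcl3 and Nfkbia (log2 fold change -0.56). Of 8 tested genes of mRNA stability, among them Zfp36, which destabilises chemokine mRNA, limma called 0, with 1 at an unadjusted p under 0.05, and voom called 0. That gene was Arid5a, which stabilises inflammatory mRNAs (limma, Benjamini-Hochberg adjusted p = 0.203). Arid5a had a mean of 0.787 FPKM in R and 1.59 FPKM in vehicle, so it was tested through its vehicle level. Of 8 tested stromal inflammatory genes 2 fell, Mmp3 and Saa3, a matrix protease and an acute phase protein, with log2 fold changes of -2.42 and -1.52 and a list median of -0.50. Both are under 1 FPKM in R and were tested through their vehicle level. Ccl2 and Ccl7, monocyte attractants in that list, did not pass, at log2 fold changes of -0.39 and -0.75. Mmp9, a protease that trims CXC chemokines, rose to a mean of 9.31 FPKM in R, against 3.63 FPKM in vehicle (SD 0.287 and 0.428, n = 2 each; limma, Benjamini-Hochberg adjusted p = 0.0155). Over all tested genes the log2 fold change had a median of 8.3e-05 on the deposited scale and 0.13 on the TPM scale.

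The corresponding lists for the interferon-induced pair follow. Of 13 tested interferon receptors, kinases and transcription factors 3 fell (23.1%) and 0 rose. Among them were Stat2 and Irf9, transcription factors of the type I interferon response, with log2 fold changes of -1.40 and -1.55 (limma, Benjamini-Hochberg adjusted p = 0.00763 for Stat2 and 0.0075 for Irf9). Ifng and Ifnb1, the genes of 2 inducing interferons, were listed at 0 in every library. Of 17 tested interferon-induced genes 14 fell, with a median log2 fold change of -1.54, among them Oasl2 (-3.25), Ifit1 (-3.01) and Isg15 (-2.66), and the fold change of Cxcl10 lay nearer 0 than that median. Of those 14, 6 were under 1 FPKM in R, Oasl2 and Ifit1 among them, and entered the test through vehicle. Of the 10 with means of at least 1 FPKM in both groups, 8 fell, with a median of -1.47. This list overlaps one whose fall in these libraries was already known and is no independent evidence. Of the 761 tested genes with GAAANNGAA in a promoter window, 45 were called lower (5.91%), against 1.25% of the 8894 tested genes with a window. The shares were 3.96% for TGANTCA, 3.92% for TATAAA, 3.42% for ATAAAA, 1.96% for GGANNTTCC (10 of 511 genes) and 1.56% for TTCNNNGAA, so the higher share was not limited to GAAANNGAA. Of the 6 tested genes with GGGAATTTCCC limma called 0, with 2, Cxcl1 and Cxcl2, at an unadjusted p under 0.05, and voom called 1, Cxcl2.

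**Figure D5:**
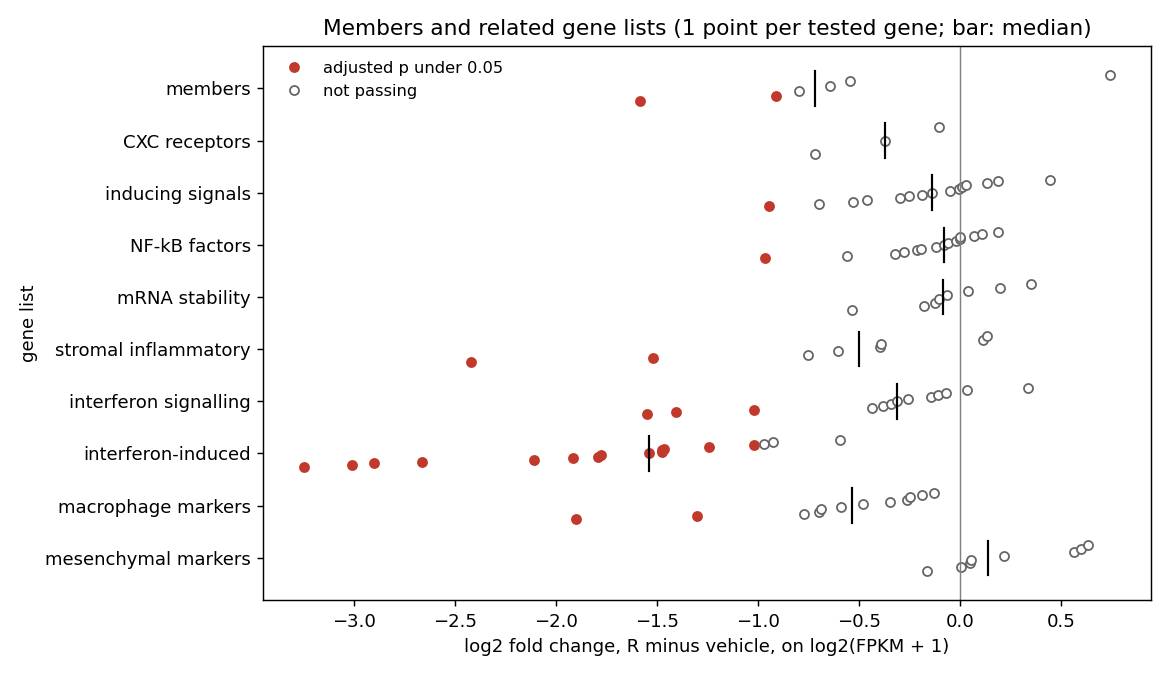
Log2 fold changes of R minus vehicle for each tested gene of the members and of related lists (filled points passed at an adjusted p under 0.05, vertical bars are list medians). The interferon-induced list lies furthest left, with a median of -1.54, and the NF-kB list sits near 0, with a median of -0.08.

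By the distance between patterns, the root mean square difference of centred log2(FPKM + 1) values over 4 libraries, the genes near to Cxcl5 among 7076 candidates included Sp100 (0.0875) and Ifi211 (0.117). Those nearest to Cxcl2 were Ppia (0.0247), Clec2d (0.0411) and Nostrin (0.0432), and to Cxcl1 Rgs18 (0.0126), Gpr146 (0.0234) and Msmo1 (0.028). Genes near to Cxcl16 included Arhgdib (0.0094) and Gpx3 (0.0235), and Cxcl14 lay nearest to Pgp (0.0171), Slc1a5 (0.0242) and Cebpa (0.0344). The measure covers 4 libraries and says nothing of function.

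Markers of other cell types were read in the same libraries. Of 12 macrophage markers, all tested, 12 had log2 fold changes below 0 (median -0.54) and 2 fell, Fcgr1 and Ctss. Over all tested genes, 50% were below 0, 1.37% were called lower and 0.345% were called higher. Ctss missed the threshold when vehicle replicate 1 (limma, Benjamini-Hochberg adjusted p = 0.21) or vehicle replicate 2 (adjusted p = 0.105) was left out. The summed level of the 12 macrophage markers was 15788 and 12109 FPKM in R and 23124 and 20691 FPKM in vehicle. Macrophage transcripts were thus abundant in cells labelled MSCs. The largest part was Lyz2, at 8891 and 7061 FPKM in R and at 14569 and 12540 FPKM in vehicle. Lyz2 did not pass (limma, Benjamini-Hochberg adjusted p = 0.321). Of 8 tested mesenchymal markers 7 were above 0, with 0 called by limma and by voom and 3 at an unadjusted p under 0.05. Over all 12176 tested genes, 872 were higher in R at an unadjusted p under 0.05 in limma. The sum over the 10 markers was 1400.1 and 1378 FPKM in R and 929.5 and 936 FPKM in vehicle. The type I collagen genes Col1a1 and Col1a2 made up 1266 and 1229 FPKM of it in R and 814 and 817 FPKM in vehicle, and the other 8 markers 134 and 149 FPKM in R and 116 and 119 FPKM in vehicle. Lepr and Thy1, markers often used for marrow stromal cells, stayed under 1 FPKM. The 8 tested markers had means of at least 1 FPKM in both groups. Pdgfrb, which had the smallest p among them, was at 60.3 and 68.9 FPKM in R and at 40.4 and 44.2 FPKM in vehicle. It did not pass (limma, Benjamini-Hochberg adjusted p = 0.112). The part of these marker levels in the values of the chemokine genes was not tested. Of 10 neutrophil markers, S100a9, Ly6g, Elane and Mpo were at 0 in all libraries, and the 1 that fell was Csf3r, which macrophages also express, at 11.2 and 10.6 FPKM in R libraries, against 19.7 and 18.4 FPKM in vehicle libraries (limma, Benjamini-Hochberg adjusted p = 0.0479). It missed the threshold when vehicle replicate 1 (adjusted p = 0.317) or vehicle replicate 2 (adjusted p = 0.13) was left out. Of 10 T and NK cell markers 6 were at 0, Cd3e and Ncr1 among them, and the 1 tested, Cd4, did not pass. Of 6 endothelial markers 2 were tested and 0 called by limma or voom, with 0 at an unadjusted p under 0.05, and all 6 dendritic cell markers stayed under 1 FPKM.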

How the data were processed

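The authors deposited 1 FPKM value per gene and library, per the file headers, for 54532 Ensembl genes; 10 empty columns were not used. The builds GRCm38 and mm10 and edgeR 3.18.1 are named per the submitters' processing notes, with no role; for aligner, counting tool, annotation and strand the entry is: not given in the sources used here. GENCODE M21 gave symbols and positions for 54495 genes. FPKM times union exon length gave whole reads, within 0.02, for 96.3 to 96.4% of values above 0 and for all 8 members, with 16534440 to 18085183 reads per library over the genes whole in every library.

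The fit of R against vehicle used limma 3.58.1 (R 4.3.3) on log2(FPKM + 1), let the variance follow a trend, and adjusted p-values by Benjamini-Hochberg over 12176 genes whose mean reached 1 FPKM; fold changes on this scale understate those of low genes. A call is an adjusted p under 0.05. The members and lists were chosen with earlier results of these data known. Named beside the members are, per list, up to 3 called genes by p in each direction, otherwise the gene of smallest p, with family members, receptors, cluster neighbours and the 3 nearest patterns per member of at least 5 FPKM. Tnf, Cd14, Tlr2, Myd88, Nfkbia, Zfp36, Adam10, Adam17, Ccl2, Ccl7, Lepr, Thy1, Ifng, Ifnb1 and the markers at 0 were named after their values were seen. Some genes that this rule names are not reported here. Motif cores were shortened to 9 letters after a first search with 10, whose counts are not reported. Intervals on reads cover counting error only. Alternatives changed the pseudocount, filter, scaling, length trend and test, left out each library, or added a block. The scripts were tested on simulated data.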

Additional observations from a re-analysis of the deposited data

How the results depend on the processing

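Over 12 alternatives the log2 fold change of each tested member kept its sign. Cxcl5 passed in 11 and Cxcl10 in 10; with every gene above 0 kept, limma called 0 genes higher and 0 lower of 24958 (2767 at an unadjusted p under 0.05), and 0 members. The count of members called lower was 1 on the TPM scale, 4 without the length trend and 5 with the replicate block; the count called higher was 1 (Cxcl14) on the TPM scale, with quantile normalization, in both voom fits, without the length trend and with the block. Leaving out 1 library gave 2 to 4 members lower and 0 to 1 higher, with 193 to 665 genes lower and 96 to 438 higher; without R replicate 2 the higher ones (438) outnumbered the lower (410). Genes called higher numbered 80 of 11564 in voom, where 74.6% of the calls were lower. Voom over all 16953 genes with 10 reads called 96 higher and 265 lower, and the length trend setting 223 and 349 of 12173. Attractants minus the interferon-induced pair was 0.42 with a pseudocount of 0.1, 0.12 on the TPM scale and 0.98 in both voom fits, against -0.15, and -0.065 over the tested members alone, a choice added after seeing the data, as was the 10-read voom fit; the cause was not tested. Leaving out 1 library, Pf4 ran from -0.036 (without R replicate 1) to 0.48, against 0.22, and Ackr3 from -0.30 to 0.092 (without vehicle replicate 1; 0.0056 without R replicate 2), against -0.10.

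The replicate numbers in the titles are not stated to pair libraries. With them as a block, 891 genes were higher and 1009 lower (53.1% lower); deviations of same-numbered libraries correlated at 0.353 over genes, and 2 pairs cannot show a pairing. At 1 to 29 reads per library, Cxcl3 and Cxcl9 are limited by depth.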
